A study of Mus musculus with 28 samples.

Results

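Germ cells of Stra8 knockout mice (KO) collected 72, 96 and 120 h after retinoic acid were compared with germ cells of wild-type mice (WT) collected at 0 h, to find which genes of the late knockout cells stood at the wild-type starting level and which stood away from it. The comparison used 8 of the 28 libraries of the series: 6 of late KO (2 per time) and 2 of WT at 0 h, chosen by genotype and time alone. Every mouse had the mixed C57BL/6 x 129s4/SvJae background and received WIN 18,446, an inhibitor of retinoic acid synthesis, over 7 days. The 0 h mice had no retinoic acid, and the late KO mice were left 72, 96 or 120 h after its injection. Cells positive for PIWIL2-eGFP, a germ cell reporter, were sorted from the testis, and polyadenylated RNA was sequenced on an Ion Proton instrument. The main comparison therefore joins genotype, retinoic acid and time in 1 difference, and KO at 0 h (2 libraries) is given beside it. KO at 12 and 18 h (4 libraries) served to find the genes that the knockout cells moved early. The labels gave no age, no number of animals per library and no description of the knockout allele, and they did not say whether replicates were separate animals. P-values here reflect the spread among these libraries, and that spread may be technical.

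Retinoic acid binds nuclear receptors of the RAR family, which sit on DNA at repeated half-sites and turn on their target genes. In the testis it moves undifferentiated spermatogonia, which depend on GDNF and FGF signals, to KIT-positive differentiating spermatogonia, and it induces Stra8 in the same cells. STRA8 is a transcription factor that germ cells need for a normal entry into meiosis. Blocking retinoic acid synthesis holds spermatogonia at the undifferentiated stage, and a later injection releases them together.

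WT 0 h replicates 1 and 2 had 8744515 and 6105236 reads counted in genes. The 3 late KO libraries of the first count table had 5296584 to 7462295 reads, and the 3 of the second table had 913055 to 1078460 and are called shallow here. A normalized table held other values for KO at 72, 96 and 120 h, which gave 4122223 to 4479729 reads and serve below as recovered reads. The labels do not tell which of these columns to trust. Mitochondrial transcripts made up 1.99% of counts in WT 0 h replicate 1, 6.26% in WT 0 h replicate 2 and 4.56 to 8.45% in late KO. Levels below are CPM, read counts scaled to TMM-adjusted library totals, differences are late KO minus WT 0 h on the log2 scale ± SE (6 against 2 libraries), and a gene was called by edgeR's quasi-likelihood test at a Benjamini-Hochberg adjusted p under 0.05. The fit took the 6 late KO libraries as independent. Replicate differences of the 3 late times correlated at 0.563 to 0.636, and the SEs, intervals and p-values do not account for this. In bulk RNA, fewer cells of a type and less RNA per cell cannot be told apart.

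Of 17519 genes tested, 1086 (6.2%) were away from WT 0 h: 651 (3.72%) higher and 435 (2.48%) lower in late KO. A further 7747 genes (44.2%) were within 2-fold, meaning that they were not called and that the 95% interval of their difference lay inside -1 to 1. The other 8686 (49.6%) were unresolved, with intervals too wide for either class. The class followed abundance: the median level on the higher side was 45.8 CPM for genes away, 55.2 CPM for genes within 2-fold and 3.25 CPM for unresolved genes. All 6 late KO libraries lay above both WT 0 h libraries for 612 of the 651 higher genes, against 10.6% of all genes tested. All 6 lay below both for 390 of the 435 lower genes, against 10.9% of all genes. These genes were called from the same 8 libraries, so both counts describe them and lend the calls no weight. The count of calls rested on WT 0 h replicate 1: without it 15 genes were called (13 higher, 2 lower), and without WT 0 h replicate 2, 498 were called (193 higher, 305 lower). Without replicate 1 the median of the 651 higher genes went from 1.01 to 0.89; they were chosen on libraries that include the rest. Without the 3 shallow libraries 173 genes were called (135 higher, 38 lower), and with recovered reads in their place 1936 (959 higher, 977 lower). Among the 80 called genes that the naming rules picked, Kit, Esx1, Cited1 and the cyclin gene Ccnd1 stayed called under every setting tried, except that Ccnd1 lost its call against a minimum log2 change of 1. Leaving out replicate 2 of KO at 72, 96 or 120 h gave 575, 610 and 605 calls.

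**Figure D1:**
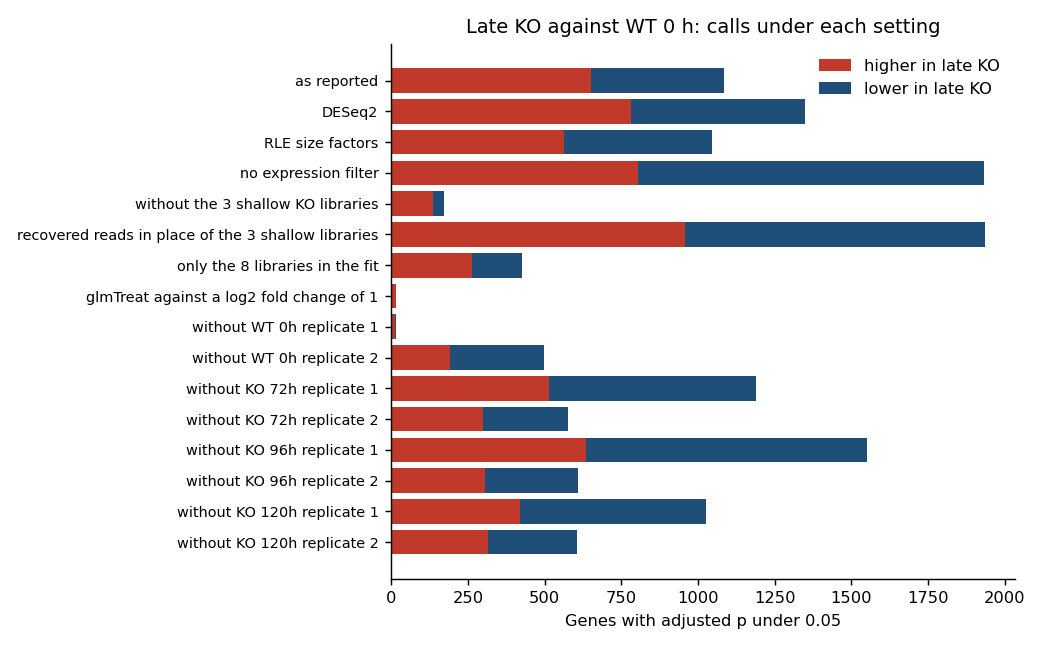
Number of genes called in late KO against WT 0 h (x axis) as reported and under each other setting that uses no replicate block (y axis), with genes higher in late KO in red and lower in blue. Leaving out WT 0 h replicate 1 reduced 1086 calls to 15, and recovered reads raised them to 1936.

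Stra8 itself (ENSMUSG00000029848.11, chromosome 6, 34920163 to 34939344, + strand, GRCm38) had 7.52 and 15.8 CPM in the 2 WT 0 h libraries. Late KO values are given throughout in time order (72, 96, 120 h), with replicate 1 before replicate 2 at each time. For Stra8 they were 0.94, 1.80, 1.08, 5.17, 1.66 and 0 CPM. The last library had 0 reads, and by counting error alone a level up to 2.91 CPM is possible there. All 6 late KO libraries were below both WT 0 h libraries, by -3.04 ± 0.99, which missed the threshold (adjusted p = 0.0601). With 0.94 and 1.66 CPM in KO at 0 h, the gene was low in the knockout before retinoic acid as well, and it rose there to 16.9 to 31.0 CPM at 12 and 18 h (4.28 ± 1.16, adjusted p = 0.0132). At 48 h the KO replicates had 61.9 and 2.15 CPM, the first the highest of the KO libraries and far from the second. The labels do not say which exons the allele removes, so the remaining reads are a partial check of genotype. The germ cell genes were within 2-fold of the wild-type start. Piwil2, the gene of the sorted reporter, had 1777 and 2094 CPM in WT 0 h and 1660 to 2647 in late KO, a difference of 0.14 with a 95% interval of -0.20 to 0.49. Ddx4, a germ cell RNA helicase (-0.45, interval -0.75 to -0.14), and Dazl, a germ cell RNA-binding protein gene (-0.29, interval -0.76 to 0.17), were also within 2-fold. The interval of Ddx4 leaves out 0 and its edgeR adjusted p was 0.0636, so within 2-fold does not mean equal there. Ddx4 was called lower with RLE scaling and with recovered reads.

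The knockout cells answered retinoic acid before the late times. At 12 and 18 h, 2466 genes (14.1%) differed from KO 0 h, 1038 (5.92%) higher and 1428 (8.15%) lower. These libraries are not part of late KO against WT 0 h, so the late position of these genes can be counted. Of the 1038 genes that rose early, 627 (60.4%) were within 2-fold of WT 0 h late, 117 (11.3%) were away in the same direction, 12 were away in the opposite direction and 282 (27.2%) were unresolved. Of the 1428 that fell early, 781 (54.7%) were within 2-fold, 114 (8.0%) were away in the same direction, 27 were away in the opposite direction and 506 (35.4%) were unresolved. Among the 15053 genes that did not change early, 42.1% were within 2-fold and 5.4% were away. Conversely, 270 of the 1086 genes away late (24.9%) had changed early. The early count rested on KO 0 h replicate 1: without it 453 genes were called early, and 210 of these were within 2-fold late. Without KO 0 h replicate 2, KO 12 h replicate 1 or KO 18 h replicate 1 the early calls were 1576, 1614 and 1632, with 927, 898 and 918 within 2-fold late. Early genes and other genes were not matched for abundance, on which the class depends. Early calls and late classes also share each gene's estimate of spread. A small estimate favours both an early call and a resolved late class. The median early change was 0.955 for the risers and -1.081 for the fallers. A gene that moved less than 2-fold early can be within 2-fold late without any return, so these shares are not shares of genes that came back.

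**Figure D2:**
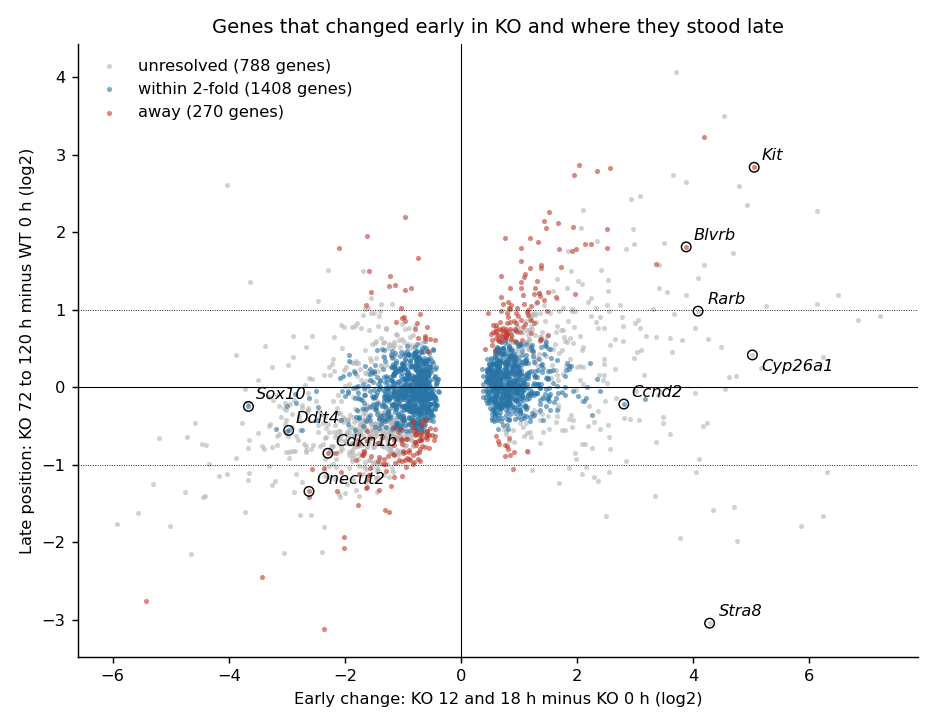
Each point is 1 of the 2466 genes that changed early in KO, with its early log2 change (x axis) and its late log2 difference from WT 0 h (y axis), coloured by class; dotted lines mark a difference of 1. Most points lie between the dotted lines, Kit and Blvrb lie above, and Onecut2 lies below.

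Medians over the early sets were followed in each KO library. The sets were chosen for their change from KO 0 h to 12 and 18 h. The medians of the 4 libraries at 12 and 18 h are therefore enlarged by the choice, and part of the step to later times can come from it. The times from 48 h on were not used in the choice. Over the 1038 early risers, the median difference of log2(CPM + 1) from the WT 0 h mean was 0.75 to 0.79 in the 4 libraries at 12 and 18 h and 0.33 and 0.34 at 48 h. In late KO it was 0.20, 0.22, 0.17, 0.26, 0.017 and 0.074. The 1428 early fallers went from -0.74 to -0.84 at 12 and 18 h to -0.52 and -0.42 at 48 h, and in late KO were at -0.28, -0.29, -0.21, -0.32, 0.049 and -0.044. Both libraries of a time were on the same side of 0 except for the early fallers at 120 h. Before retinoic acid, at KO 0 h, the medians were -0.16 and -0.049 for the risers and 0.28 and 0.058 for the fallers. The KO 0 h libraries also served in the choice, which lowers the risers and raises the fallers there. These 0 h medians therefore cannot show a difference from WT present before retinoic acid.

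**Figure D3:**
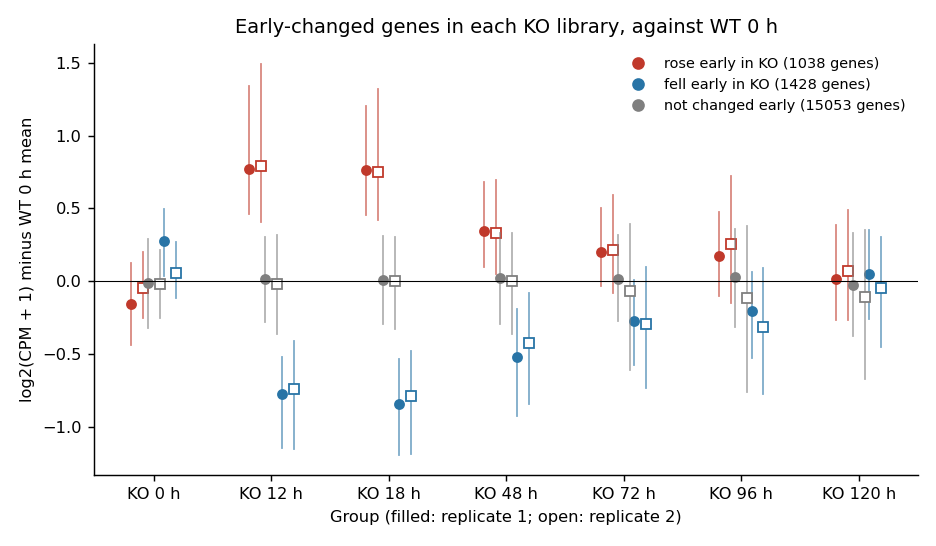
Median difference of log2(CPM + 1) from the WT 0 h mean (y axis, points; bars span the quartiles over genes) in each KO library by time (x axis), for genes that rose early, fell early or did not change early. The risers and fallers lie on opposite sides of 0 at 12 and 18 h and meet near 0 at 120 h. The sets were chosen on the KO 0, 12 and 18 h libraries.

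Genes of retinoic acid signalling and metabolism were tested next. Of 22 members, 3 were higher in late KO (3.72% of all genes were) and none was lower (2.48% of all genes were). The other 19 did not pass (7 within 2-fold, 12 unresolved). The median difference of the list was 0.46 against -0.054 over all genes tested. Members of the list induced most strongly early had low levels again in late KO. Cyp26a1, the enzyme that degrades retinoic acid, had 0.34 and 0.17 CPM in WT 0 h and rose early in KO by 5.02 ± 0.69 (adjusted p = 2.82e-05), to 37.7 and 34.0 CPM at 12 h and 11.5 and 25.8 CPM at 18 h. In late KO it had 0.19, 0, 0.27, 2.07, 0.50 and 0.92 CPM, where 3 reads of a shallow library (replicate 2) are worth 2.78 to 3.29 CPM. Rarb, a retinoic acid receptor gene, had 0.23 CPM and 0 reads in WT 0 h, rose early by 4.08 ± 0.76 (adjusted p = 0.00044) to between 5.15 and 10.5 CPM, and had between 0 and 1.03 CPM in late KO. Late KO overlapped WT 0 h for both, and both were unresolved (0.42 ± 1.21 and 0.98 ± 1.27). Stra6, the retinol uptake receptor, had 0.79 and 1.51 CPM in WT 0 h, 15.3 to 58.8 at 12 and 18 h in KO and 0 to 3.60 in late KO. Adh1, a retinol dehydrogenase gene, had 0.34 CPM in both WT 0 h libraries, 4.70 to 9.18 CPM early in KO and 0 to 0.90 late. These 4 genes were named after their values were seen.

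Of 769 early risers with a promoter sequence in RefSeq (GRCm38.p6), 3 held the retinoic acid response element of the direct repeat type with a 5-base spacer on either strand: Cyp26a1, Rarb and Blvrb. The window of 300 bases ran from 250 before to 50 after the gene's start, the half-sites were the usual degenerate ones, and any start site of a gene counted. The share was 0.39% of early risers, 0.0% of 1062 early fallers, 0.07% of 11364 tested genes and 0.11% of all 27025 genes with a window. A match is a description of the letters only. The 250 bases before the start are shown for these 3 because they are the early risers with the element and fell in different late classes. They are given 5′ to 3′ on the gene's strand, with the 17-base element in capitals. In Cyp26a1 (chr19:37697558-37697807, + strand) it ends 15 bases before the start and reads on the opposite strand. In Rarb (chr14:16575477-16575726, - strand) it ends 36 bases before the start and reads on the gene's strand. In Blvrb (chr7:27452168-27452417, + strand) it ends 2 bases before the start of 1 of its RefSeq starts and reads on the opposite strand.
Cyp26a1: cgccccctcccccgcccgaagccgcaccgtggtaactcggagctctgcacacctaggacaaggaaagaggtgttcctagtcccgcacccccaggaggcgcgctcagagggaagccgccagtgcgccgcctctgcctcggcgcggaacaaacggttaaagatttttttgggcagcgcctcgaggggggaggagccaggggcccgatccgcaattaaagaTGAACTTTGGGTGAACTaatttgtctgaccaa
Rarb: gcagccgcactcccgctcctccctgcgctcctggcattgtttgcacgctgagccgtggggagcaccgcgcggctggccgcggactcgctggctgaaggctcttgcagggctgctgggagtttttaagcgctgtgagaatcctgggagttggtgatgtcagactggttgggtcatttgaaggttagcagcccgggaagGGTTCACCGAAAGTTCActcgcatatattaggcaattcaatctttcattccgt
Blvrb: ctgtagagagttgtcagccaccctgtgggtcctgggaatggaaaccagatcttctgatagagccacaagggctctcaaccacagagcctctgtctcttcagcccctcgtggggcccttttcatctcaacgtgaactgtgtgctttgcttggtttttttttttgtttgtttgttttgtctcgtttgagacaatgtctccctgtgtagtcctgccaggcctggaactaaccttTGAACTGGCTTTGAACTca
Of the 3, Cyp26a1 and Rarb were unresolved late, and a difference in late position among the 3 was not tested. Blvrb, a biliverdin reductase gene, was the one that was away late. It had 1.68 and 0.50 CPM in WT 0 h and 20.2 to 42.3 CPM at 12 and 18 h in KO. In late KO it had 2.64, 5.40, 4.17, 4.14, 5.16 and 4.58 CPM, all above both WT 0 h libraries (1.81 ± 0.52, adjusted p = 0.0355). The recovered columns of 72, 96 and 120 h held 6.80, 3.70 and 1.41 CPM, the last inside the WT 0 h range. KO at 0 h had 1.15 and 3.56 CPM, and against it late KO did not pass (0.96 ± 0.47, adjusted p = 0.303). The octamer CNCCTCAG, the motif associated with STRA8 binding, was searched in the same windows on both strands. It was in 10.45% of promoters of genes higher in late KO, 13.83% of those lower and 10.91% of all tested genes with a window.

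The 3 retinoid genes called were Crabp1, Cyp26b1 and Rbp4. Crabp1, a cellular retinoic acid-binding protein gene, had 53.9 and 82.2 CPM in WT 0 h and 166, 176, 210, 152, 87.4 and 102 CPM in late KO. All 6 were above both, by 1.08 ± 0.27 (adjusted p = 0.0311). Cyp26b1, a second retinoic acid hydroxylase gene, had 6.62 and 7.71 CPM in WT 0 h and 6.30 to 19.97 in late KO (median 15.2), with 1 late library below both WT values (1.07 ± 0.30, adjusted p = 0.0412). Rbp4, the retinol carrier gene, went from 8.76 and 10.2 CPM to a late median of 18.8 and a lowest late value of 9.62, inside the WT range (0.96 ± 0.27, adjusted p = 0.042). None of these 3 was called without either of the WT 0 h replicates. Of 23 Hox genes tested, Hoxb9 alone was called, while 3.72% of all genes were called higher. Hoxb9 had 0.56 and 0.34 CPM in WT 0 h and 2.07 to 10.8 CPM late (3.03 ± 0.75, adjusted p = 0.0152). Hoxb1, a retinoic acid target, had 0.34 CPM in both WT 0 h libraries, 1.04 to 11.02 CPM at 12 and 18 h in KO and 0.57 to 1.03 CPM late, and was unresolved.

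Early risers within 2-fold of WT 0 h late were led by Glipr2, Ccnd2, Iqgap3, Tm4sf5, Pgbd5 and Pvrl1. Ccnd2, the cyclin D2 gene (chromosome 6, 127125162 to 127152193), had 131 and 114 CPM in WT 0 h and between 643 and 1210 CPM in KO at 12 and 18 h. Its late values were 139.8, 169, 88.0, 117, 82.2 and 66.9 CPM, on both sides of WT 0 h. The early rise was 2.80 ± 0.20 (adjusted p = 5.33e-08), and the late difference from WT 0 h was -0.22 with an interval of -0.62 to 0.18. Glipr2 rose early by 3.17 ± 0.32, to between 74.3 and 115 CPM, and stood at 4.58 to 14.5 CPM late against 11.3 and 5.70 in WT 0 h. Iqgap3, which encodes a scaffold protein of dividing cells, reached 113 to 229 CPM early and 21.9 to 55.8 late against 36.9 and 29.5. Tm4sf5, Pgbd5 and Pvrl1, a nectin gene, rose early by 2.33, 2.26 and 2.16 and had late differences of 0.11, -0.36 and -0.14.

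Early risers that were higher than WT 0 h late were led by Kit, Cytip, Blvrb, Gpr50, Id1 and Dmkn. Against KO 0 h, Kit and Gpr50 (2.825 ± 0.59, adjusted p = 0.00574) were called higher. Cytip, Blvrb, Id1 and Dmkn did not pass there (2.13, 0.96, 1.67 and 0.61, adjusted p = 0.0699, 0.303, 0.124 and 0.486). Kit, the receptor of differentiating spermatogonia (chromosome 5, 75574916 to 75656722), had 22.0 and 65.2 CPM in WT 0 h and 27.9 and 37.5 in KO 0 h. It reached 855, 1241, 808 and 1407 CPM at 12 and 18 h in KO, 544 and 578 at 48 h, and 363, 361, 344, 403, 205 and 236 CPM in late KO. The late level was below the early one and still above every 0 h library, by 2.84 ± 0.29 over WT (adjusted p = 0.000249) and 3.25 ± 0.30 over KO 0 h (adjusted p = 0.000162). Id1, which encodes an inhibitor of basic helix-loop-helix factors, had 0.45 and 1.17 CPM in WT 0 h and 11.5, 9.90, 6.19 and 10.3 CPM at 72 and 96 h. At 120 h it had 0.67 CPM in replicate 1, inside the WT range, and 6.42 in replicate 2 (2.83 ± 0.65, adjusted p = 0.0129). Cytip, Gpr50, an orphan receptor gene, and Dmkn had at most 1.68 CPM in WT 0 h and late medians of 2.83, 3.44 and 3.23 CPM (3.23 ± 0.81, 1.59 ± 0.45 and 2.04 ± 0.50). Cytip had 0 reads in the shallow library of 120 h. The recovered column of 120 h held 0.24 CPM of Cytip, inside its WT 0 h range of 0.11 to 0.50 CPM.

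Early fallers within 2-fold of WT 0 h late were led by Sox10, Arhgef15, Tmem63c, Fbxo32, Ddit4 and Atp2a1. Against KO 0 h, from which the early fall was measured, the late difference of each was below 0. Ddit4 (-1.25 ± 0.21, adjusted p = 0.00122), Fbxo32 (-0.77 ± 0.19, adjusted p = 0.0241) and Arhgef15 (-0.69 ± 0.19, adjusted p = 0.044) were called lower there. Sox10, Tmem63c and Atp2a1 did not pass against KO 0 h (-0.69, -0.76 and -1.04). Sox10, a transcription factor gene, had 21.4 and 17.1 CPM in WT 0 h and 0.83 to 3.14 CPM at 12 and 18 h in KO. Its late values were 13.02, 8.10, 13.6, 14.5, 27.5 and 27.5 CPM, with 120 h above both WT 0 h libraries and the 4 libraries of 72 and 96 h below both. Its early change was -3.66 ± 0.42 and its late difference -0.25 (interval -0.96 to 0.47). Ddit4, an inhibitor of mTORC1, had 103 and 89.2 CPM in WT 0 h and 14.6 to 26.0 early in KO. Its late values were 44.7, 37.8, 66.9, 46.5, 118 and 109 CPM, with 120 h alone above WT 0 h. The late difference of Ddit4 from WT 0 h was -0.56, with an interval of -0.98 to -0.13 that leaves out 0. Arhgef15, a guanine nucleotide exchange factor gene, and Fbxo32, a ubiquitin ligase gene, both fell early and ended at -0.54 and -0.57, just short of the threshold (adjusted p = 0.0755 and 0.0625), so for them within 2-fold does not mean equal.

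Early fallers that were lower than WT 0 h late were led by Onecut2, Hydin, Six4, Hmcn1, Cdkn1b and Adcy10. In several, the low values came from 72 and 96 h. Against KO 0 h, Hydin (-1.26 ± 0.34, adjusted p = 0.0394) and Hmcn1 (-1.32 ± 0.27, adjusted p = 0.00858) were called lower. Onecut2, Six4, Cdkn1b and Adcy10 did not pass there (-1.27, -0.77, -0.69 and -0.84, adjusted p = 0.059, 0.121, 0.154 and 0.0577). Hydin, a gene of motile cilia, had 139.7 and 63.7 CPM in WT 0 h, 23.2, 26.1, 31.8 and 16.6 CPM at 72 and 96 h, and 103 and 69.7 CPM at 120 h, inside the WT range (-1.41 ± 0.33, adjusted p = 0.0137). Hmcn1, an extracellular matrix gene, had 122 and 73.6 CPM in WT 0 h, 29.0 to 45.0 at 72 and 96 h, and 100 and 69.7 at 120 h. Onecut2, a homeobox gene, had 183 and 99.6 CPM in WT 0 h, 19.6 to 55.8 at 72 and 96 h, and 98.5 and 90.8 at 120 h, just below the lower WT library. Cdkn1b, which encodes the cell cycle inhibitor p27, had 43.1 and 33.5 CPM in WT 0 h and 18.9, 13.5, 23.5, 16.6, 23.3 and 33.0 CPM in late KO, all below both (-0.85 ± 0.26, adjusted p = 0.0472). Adcy10, the soluble adenylyl cyclase gene, likewise had all 6 late libraries (25.9 to 51.6 CPM) below WT 0 h (73.4 and 63.4). Six4 was at 16.6 to 45.1 CPM late against 59.8 and 79.6.

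**Figure D4:**
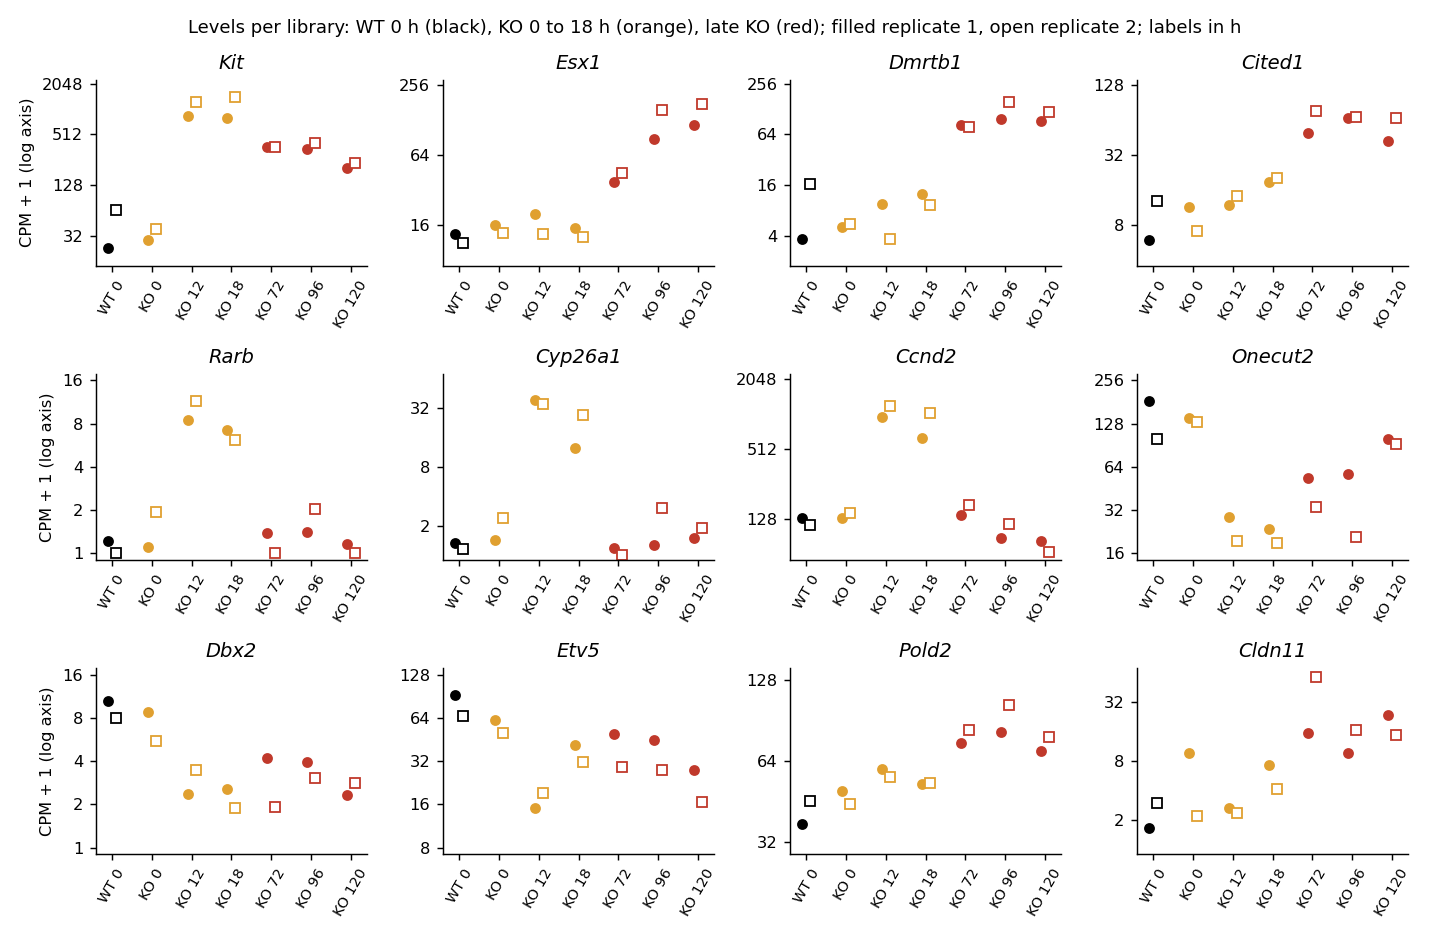
CPM + 1 (y axis, log scale) of 12 genes in each library of WT 0 h, KO at 0, 12 and 18 h and late KO (x axis, in h). The late values of Cyp26a1, Rarb and Ccnd2 overlap those of WT 0 h, Kit stays above it, and Esx1 and Dmrtb1 are high in late KO alone among these groups.

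Most genes of differentiating spermatogonia were within 2-fold of the start, and a part was above it. Of 16 tested, 6 were higher in late KO (3.72% of all genes were), none was lower, 9 were within 2-fold and 1 was unresolved, with a median difference of 0.34. The 6 were Kit, Esx1, Dmrtb1, Rhox13, Plk5 and Prss50. Esx1, an X-linked homeobox gene (chromosome X, 137115397 to 137122083), had 12.5 and 10.2 CPM in WT 0 h and 11.7 to 19.0 CPM in KO at 12 and 18 h. Its late values were 36.4, 44.1, 86.7, 154, 116 and 175 CPM, all above every 0 h library (2.93 ± 0.31, adjusted p = 0.000114). It was not called early (0.036 ± 0.333). Dmrtb1, a DM-domain factor gene that acts between spermatogonial differentiation and meiosis (chromosome 4, 107676290 to 107684230), had 2.69 and 15.6 CPM in WT 0 h. Its late values were 80.9, 77.4, 96.6, 154, 90.4 and 116 CPM, all above every 0 h library (3.51 ± 0.48, adjusted p = 0.00321). Plk5, a polo-like kinase gene, had 0.34 and 1.51 CPM in WT 0 h and 3.60 to 13.8 in late KO (3.24 ± 0.52, adjusted p = 0.00081), and Rhox13, an X-linked homeobox gene, 4.71 and 9.89 against 11.9 to 30.7. Sohlh2, a factor of differentiating spermatogonia (0.50 ± 0.16), and the DNA methyltransferase genes Dnmt3a and Dnmt3b (0.0093 ± 0.14 and 0.20 ± 0.14) were within 2-fold. Without WT 0 h replicate 1 the calls in the list were Esx1 and Kit.

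Outside the lists, the largest late excesses included Cited1, a transcriptional co-regulator gene (chromosome X, 102247381 to 102252181). It had 4.94 and 11.9 CPM in WT 0 h, 10.9 to 19.3 CPM in KO at 12 and 18 h, and 48.9, 75.6, 65.2, 67.2, 40.9 and 65.1 CPM late (2.84 ± 0.31, adjusted p = 9.33e-05). St6galnac2, a sialyltransferase gene, had 0.34 and 0.50 CPM in WT 0 h, 2.08 and 2.70 CPM at 72 h and 5.25 to 12.8 CPM at 96 and 120 h (3.59 ± 0.68, adjusted p = 0.00199). Mapk13, a p38 kinase gene, had 1.57 and 6.37 CPM against 18.3 to 49.6 (2.81 ± 0.48, adjusted p = 0.00496). The other genes named by size, Cldn11, Amhr2, Clu, Jam2 and Ntn4, are given with the Sertoli cell markers.

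A few undifferentiated spermatogonia genes stood below the start. Of 29 tested, 3 were lower (2.48% of all genes were), 1 was higher, 11 were within 2-fold and 14 were unresolved, with a median of -0.54. None of the 29 rose early and 14 fell early, of which 5 were within 2-fold late, 3 were away and 6 were unresolved. Etv5, a GDNF and FGF target, had 91.0 and 64.5 CPM in WT 0 h, 14.2 to 40.4 early in KO, and 48.5, 27.9, 44.0, 26.9, 26.8 and 15.6 CPM late, all below both (-1.27 ± 0.31, adjusted p = 0.0182). Zbtb16, which encodes PLZF, had 980 and 679 CPM in WT 0 h and 458 to 585 late (-0.68 ± 0.21, adjusted p = 0.0486). Foxo1 had 444 and 557 CPM against 221 to 393 (-0.62 ± 0.17, adjusted p = 0.0258). Epcam, a cell adhesion gene that rises as spermatogonia differentiate, was the higher one, with 39.0 and 66.4 CPM against 92.7 to 203 (1.35 ± 0.26, adjusted p = 0.00951). Nanos3 and Sox3 fell early by 1.82 and 1.61 and late were at -0.14 and 0.013 from WT 0 h, both within 2-fold. Nr2e1 fell early by 3.88 and was unresolved late (-0.92 ± 0.34, adjusted p = 0.0847), with all 6 late libraries (11.7 to 33.0 CPM) below WT 0 h (51.9 and 38.2). Against KO 0 h, 4 of the 29 were lower and 1 was higher. No member was called without WT 0 h replicate 1 or without the 3 shallow libraries, where the medians were -0.43 and -0.42, and 5 were lower with recovered reads.

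In the GDNF and FGF response, 3 of 20 genes were lower (2.48% of all genes were), 1 was higher, 10 were within 2-fold and 6 were unresolved. Dusp6, a phosphatase that turns off ERK, had 48.6 and 43.8 CPM in WT 0 h and 9.17 to 37.4 late (-1.13 ± 0.23, adjusted p = 0.00561). Il17rd, an FGF signalling inhibitor, had 94.4 and 77.5 CPM against 33.1 to 54.9 (-0.98 ± 0.24, adjusted p = 0.017), and the third was Etv5. The receptor gene Fgfr3 was higher, at 20.7 to 35.2 CPM against 12.7 and 11.1 (1.10 ± 0.24, adjusted p = 0.0132). Ret, the GDNF receptor gene, fell early by 1.64 and stood at 212 to 351 CPM late against 433 and 379.7 in WT 0 h, unresolved at -0.54 ± 0.29. Without WT 0 h replicate 1 no member of the list was called, and without the shallow libraries Dusp6 alone was.

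Cell cycle genes were above the start in part. Of 48 DNA replication genes 14 were higher, 1 was lower, 26 were within 2-fold and 7 were unresolved (median 0.41). Of 38 mitosis genes 12 were higher, none was lower, 21 were within 2-fold and 5 were unresolved (median 0.33). The share of all genes called higher was 3.72%. Early, 31 of the 48 replication genes had risen, and 16 of these were within 2-fold late, 10 away and 5 unresolved. Ccne1, the cyclin E1 gene, had 11 and 14.1 CPM in WT 0 h and 26.1 to 42.4 late (1.47 ± 0.19, adjusted p = 0.000249), and it was not called early (0.33 ± 0.19). Pold2, a DNA polymerase delta subunit, had 36.3 and 44.6 CPM against 68.6 to 102 (0.99 ± 0.15, adjusted p = 0.00134), and Pola2, a primase-polymerase subunit, 44.8 and 54.0 against 70.6 to 97.2 (0.75 ± 0.14, adjusted p = 0.00569). Pola1, the catalytic partner of Pola2, was the lower one: it rose early by 0.91 and stood at 23.8 to 42.3 CPM late against 61.6 and 61.5 (-0.84 ± 0.24, adjusted p = 0.035). Among mitosis genes, Plk1 went from 23.02 and 38.6 CPM to 52.2 to 117 (1.45 ± 0.30, adjusted p = 0.0145), Birc5 by 0.92 ± 0.18 and Kif20a by 0.70 ± 0.16. The WT 0 h libraries differed in these lists, with summed levels of 4193 and 5228 CPM for replication and 3608 and 5308 CPM for mitosis, against late KO ranges of 5496 to 7337 and 5164 to 7018 CPM. Without WT 0 h replicate 1, the one with the lower sums, no member of either list was called, and the medians were 0.23 and 0.061.

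Among D-type cyclins and cell cycle inhibitors, Ccnd1 had 87.5 and 80.1 CPM in WT 0 h, and 144, 152, 187, 268, 179 and 204 CPM in late KO (1.14 ± 0.14, adjusted p = 0.000156). Cdkn2c, an inhibitor of CDK4 and CDK6, was also higher, from 1.24 and 2.35 CPM to 2.70 to 12.5 (2.02 ± 0.40, adjusted p = 0.0065). Rb1, the retinoblastoma gene, was lower, at 63.9 to 93.2 CPM against 170.2 and 146 (-1.04 ± 0.23, adjusted p = 0.0077), as was Cdkn1b. The other 13 of 17 members did not pass, Ccnd2 among them. Over all genes tested 3.72% were higher and 2.48% lower.

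The meiotic prophase list was near the wild-type start, with a lower side against WT 0 h. Of 44 genes 1 was higher (3.72% of all genes were) and 5 were lower (2.48% of all genes were). Another 24 were within 2-fold and 14 were unresolved (median -0.18). Against KO 0 h, 3 were higher (1.65% of all genes were) and none was lower (0.759% of all genes were), with a median of 0.091. The list summed to 3472 and 3989 CPM in WT 0 h, 2928 and 3325 CPM in KO 0 h and 3088 to 3890 CPM in late KO. Early, 9 of the 44 had risen, against 5.92% of all genes. Hfm1, a crossover helicase gene, had 57.7 and 39.9 CPM in WT 0 h and 21.7 to 33.8 late (-0.91 ± 0.22, adjusted p = 0.0153). Msh4, which stabilises crossover intermediates, had 21.4 and 13.8 CPM against 7.26 to 10.8 (-1.003 ± 0.285, adjusted p = 0.034). Rad21l, a meiotic cohesin gene, Hormad2, a chromosome axis gene, and Shoc1, listed under its older symbol AI481877, were lower by -0.92 ± 0.27, -0.69 ± 0.20 and -0.70 ± 0.20. Mei1, needed for meiotic double-strand breaks, was higher at 56.1 to 89.1 CPM against 38.0 and 35.4 (0.99 ± 0.18, adjusted p = 0.00457). Early risers Rec8, Smc1b and Dmc1 were within 2-fold of WT 0 h late (-0.22, 0.19 and 0.40). Hormad1 rose early by 2.15 and was unresolved late at -1.03 ± 0.45. Without WT 0 h replicate 1 no member was called.

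Of 26 piRNA and germline genes 19 were within 2-fold, 4 were unresolved, none was higher and Tdrd7, Asz1 and Tdrd5 were lower, against 2.48% of all genes (-0.60 ± 0.15, -0.70 ± 0.19 and -0.54 ± 0.17). Asz1, which anchors piRNA factors at mitochondria, had 113 and 114 CPM in WT 0 h and 52.8 to 81.5 late. None of the list was called without WT 0 h replicate 1 or without the shallow libraries, and 8 were lower with recovered reads. The share of all genes called higher was 3.72%. Of 9 DNA methylation genes, the maintenance enzyme gene Dnmt1 was higher, at 580 to 1026 CPM against 473 and 527 (0.64 ± 0.18, adjusted p = 0.0443). Of 13 genes of the Polycomb-related complex that keeps germline genes off, L3mbtl2 was higher (0.59 ± 0.14, adjusted p = 0.021), and Mga stood at 393 to 596 CPM against 722 and 701 without passing (-0.54 ± 0.18, adjusted p = 0.0654).

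Of the Bcl2 family, which sets the threshold for apoptosis, 3 of 15 were higher (3.72% of all genes were), the pro-apoptotic Bik, Bok and Bax, and 1 was lower (2.48% of all genes were), the pro-apoptotic Pmaip1, which encodes NOXA. None of the 15 was called without either WT 0 h replicate or without the shallow libraries. Against KO 0 h none was called either (Bax 0.12 ± 0.23, Bik 0.30 ± 0.24, Bok 0.58 ± 0.33 and Pmaip1 -0.32 ± 0.26). In KO 0 h, Bax was at 137.5 and 89.1 CPM and Bik at 12.7 and 10.7 CPM. Bax had 66.2 and 67.1 CPM in WT 0 h and 117 to 150 late (0.89 ± 0.23, adjusted p = 0.0339), Bik 6.17 and 7.38 against 12.6 to 16.7 (1.10 ± 0.24), and Pmaip1 32.9 and 26.8 against 11 to 21.9 (-0.88 ± 0.26). Phlda3, a p53 target that restrains AKT, had 5.39 and 5.03 CPM against 12.3 to 30 (1.92 ± 0.29, adjusted p = 0.00129). With Bax it made 2 of 23 p53 targets higher, with Pmaip1 lower. Of 35 autophagy and lysosome genes 27 were within 2-fold, Wipi2 and Becn1 were higher (0.53 ± 0.14 and 0.46 ± 0.13) and Atg14 was lower (-0.62 ± 0.16). The 2 phosphofructokinase genes of the glycolysis list went opposite ways, Pfkl at 1.40 ± 0.28 and Pfkp at -0.71 ± 0.19. Cyc1 was the called one of 37 nuclear genes of oxidative phosphorylation (0.77 ± 0.16), Rrn3 of 25 of ribosome biogenesis (0.47 ± 0.14) and H2-K1 of 15 of antigen presentation (1.46 ± 0.26). Over all genes tested 3.72% were higher and 2.48% lower, so 1 or 2 calls say little about lists of this size. None of 26 immediate early and stress genes was called. None of 43 cytosolic ribosomal protein genes was called either, with a median of -0.77 and 38 unresolved. Their summed level was 18792 and 26997 CPM in WT 0 h and 18647 to 29155 CPM in the 3 deeper late libraries. The 3 shallow libraries had 6468 to 7387 CPM and the recovered columns 13759 to 16030 CPM, and without the shallow libraries the median was -0.078.

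**Figure D5:**
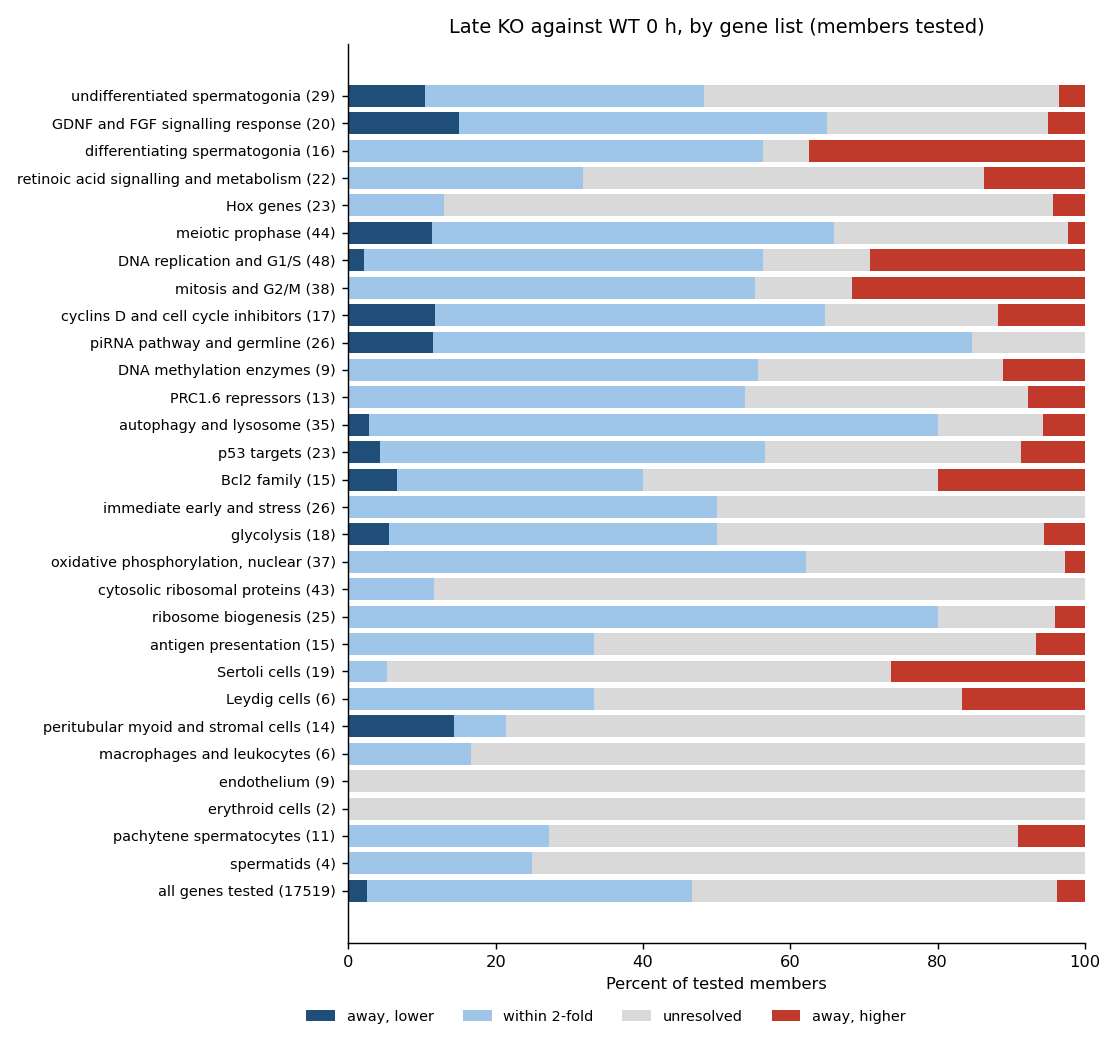
Share of tested members (x axis, percent) that were lower, within 2-fold, unresolved or higher in late KO against WT 0 h, for each gene list and for all genes tested (y axis, number tested in brackets). Differentiating spermatogonia, replication, mitosis and Sertoli cell lists have the widest higher shares, and 8 lists have no gene called higher.

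Sertoli cells are the somatic cells that surround spermatogonia, and the sort for a germ cell reporter should leave them out. Of 19 of their markers tested, 5 were higher in late KO (3.72% of all genes were) and none was lower (2.48% of all genes were). Another 1 was within 2-fold and 13 were unresolved, with a median over the list of 1.06. Their summed level was 126 and 195 CPM in WT 0 h, 328 and 193 in KO 0 h and 177 to 218 in KO at 12 and 18 h. In late KO it was 413, 1195, 317, 389, 455 and 341 CPM, with the highest value in the shallow library of 72 h. The column of recovered reads for the same group held 1061 CPM. Clu, an abundant Sertoli cell product, had 21.9 and 33.7 CPM in WT 0 h and 158, 613, 109, 160.3, 179 and 120.1 CPM late (2.83 ± 0.60, adjusted p = 0.0303). Cldn11, a tight junction gene of Sertoli cells, had 0.67 and 2.01 CPM against 8.61 to 56.7 (3.89 ± 0.83, adjusted p = 0.0144). Amhr2, the receptor of anti-Müllerian hormone, had 1.57 and 3.35 CPM against 9.42 to 64.8 (3.04 ± 0.66, adjusted p = 0.0187). Sox9 and Inhbb were higher by 1.26 ± 0.36 and 1.88 ± 0.49. Without the 72 h shallow library Amhr2 and Cldn11 were called and the median was 0.89. None was called without the 3 shallow libraries (median 1.05), without WT 0 h replicate 1 (median 0.58) or without WT 0 h replicate 2 (median 1.90). Against KO 0 h none of the 19 passed (median 0.85). Jam2, a junction protein gene, and Ntn4, a netrin gene, are not in the list and were highest in the same library, at 23.4 and 21.6 CPM, against 2.07 to 6.98 and 2.75 to 5.99 CPM in the other late libraries. The part of somatic cells in these differences was not tested.

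Genes of peritubular and stromal cells summed to 686 and 727 CPM in WT 0 h and 459 to 767 CPM in late KO, and Leydig cell genes to 115 and 136 against 156 to 192 CPM. Sums of the other lists in late KO were 6.21 to 16.2 CPM for 14 macrophage and leukocyte genes, 39.3 to 67.1 CPM for 11 endothelial genes and 1.62 to 4.33 CPM for 8 erythroid genes, and none of their tested members was called. Spermatid genes summed to 10.3 to 17.5 CPM, with none called, and 3 of 14 had no read in the 8 libraries. Scarb1 was the called one of 6 Leydig cell genes (0.66 ± 0.15). Igfbp5 and Ptch1 were the called ones of 14 peritubular and stromal genes, both lower. Hspa2, a spermatocyte chaperone gene, was the called one of 11 pachytene genes, from 13.1 and 17.1 CPM to 24.0 to 53.8 (1.35 ± 0.31, adjusted p = 0.0223). Over all genes tested 3.72% were higher and 2.48% lower.

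The most reduced genes with all late libraries below both WT 0 h libraries had modest levels: Dbx2, Pik3c2g, Ak9, Zfp534, Igfbp5, Nhs, Aspa, Zfp811, Aox4, Trim12c, Zfp59 and Styx, from -1.94 to -1.56. Dbx2, a homeobox gene, had 9.54 and 7.04 CPM in WT 0 h, 7.76 and 4.51 in KO 0 h, and 3.21, 0.90, 2.96, 2.07, 1.33 and 1.83 CPM late (-1.94 ± 0.42, adjusted p = 0.00733). It had already fallen at 12 and 18 h (-2.02 ± 0.45). Igfbp5, an IGF-binding protein gene, had 12.8 and 13.6 CPM in WT 0 h and 1.83 to 6.30 late (-1.69 ± 0.35, adjusted p = 0.00627), with no early call. Aox4, an aldehyde oxidase gene, had 33.9 and 15.9 CPM against 2.07 to 11.5, and Trim12c 25.6 and 43.2 against 2.70 to 16.3. Zfp534, Zfp811 and Zfp59 are zinc finger genes of a large family with similar sequences, so reads may be shared between relatives. Zfp534, Nhs and Zfp59 had 0 reads in 1 or more shallow libraries, where 3 reads are worth 2.78 to 3.29 CPM. Styx shares 24.0% of its exon length with Gnpnat1, and the use of strand in counting was not given. The same limit holds for called genes above: Ccnd1 shares 23.4% with LTO1, Kif20a 29.3% with Cdc23 and Becn1 43.9% with Cntd1.

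Against the knockout's own 0 h, fewer genes were called: 422 (2.41%), 289 higher (1.65%) and 133 lower (0.759%). Both comparisons use the same 6 late libraries, so their values are given side by side and not as support for each other. Esx1 differed by 2.93 from WT 0 h and 2.63 from KO 0 h, Dmrtb1 by 3.51 and 4.54, Cited1 by 2.84 and 2.77, Plk5 by 3.24 and 2.95, St6galnac2 by 3.59 and 2.88, and Ccnd1 by 1.14 and 0.98, all called in both. Cldn11 (3.89 and 1.84), Amhr2 (3.04 and 1.43) and Clu (2.83 and 1.46) were called against WT 0 h and not against KO 0 h. Among lower genes, Dbx2 was called in both (-1.94 and -1.53). Igfbp5 (-1.69 and -1.09), Etv5 (-1.27 and -0.77), Rb1 (-1.04 and -0.29) and Zfp811 (-1.62 and -0.34) did not pass against KO 0 h. Hk1, the first enzyme of glycolysis, and Fbxo32 were within 2-fold of WT 0 h and lower than KO 0 h (-0.70 and -0.77). Whether the 2 differences of a gene differ was not tested. Without KO 0 h replicate 1 or 2, 15 and 8 genes were called against KO 0 h.

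Pooling 3 late times assumes like levels among them. No gene passed the test of a difference among 72, 96 and 120 h with edgeR (smallest adjusted p = 0.131), while 1249 had an unadjusted p under 0.05 and DESeq2 called 16. Same-numbered libraries of the 3 late times deviate together, and with the replicate number as a block 3 genes were called. The 4 smallest p-values were those of Cnpy1, Ankrd34b, Nobox and Ddit4. Nobox, a homeobox gene best known from oocytes, had 2.13 and 4.19 CPM in WT 0 h, and 22.8, 21.6, 13.2, 22.8, 2.66 and 1.83 CPM in late KO. It is away in the pooled comparison (1.65 ± 0.42, adjusted p = 0.0274), with 120 h inside or below the WT range. Cnpy1 had 10.2 and 12.6 CPM at 72 h, 0 to 2.07 later and 1.68 and 2.18 in WT 0 h. Ankrd34b had 7.30 and 4.69 CPM in WT 0 h, near its 5.66 and 5.40 CPM of 72 h, and 0.33 and 0.92 CPM at 120 h. For genes of this kind, and for Hydin and Hmcn1 above, the pooled difference is a mean of unlike times.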

How the data were processed

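The authors deposited whole-number read counts per gene symbol in 2 tables, each with 1 library of every group, and 2 further tables labelled FPKM. Per the submitters' processing notes, the tools included TopHat, Bowtie and Cufflinks and the build was mm10. No version, counting program or strand setting was found in the labels or file headers. The values of the 2 further deposited tables were CPM, each count divided by its library's sum, from which whole reads were recovered for KO 72, 96 and 120 h (100% of values within 0.1 read); these served as an alternative. WT columns of the CPM tables matched the same-numbered count table and KO columns the other-numbered one, and numbers here follow the count tables.

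Of 43280 features, 27 with date-like names were left out. edgeR 4.0.16 in R 4.3.3 was run on all 28 libraries: TMM scaling, its default filter (17519 genes kept), 14 group means, robust quasi-likelihood fit and Benjamini-Hochberg adjustment over all genes tested. Contrasts were the mean of KO 72, 96 and 120 h minus WT 0 h, the same minus KO 0 h, the mean of KO 12 and 18 h minus KO 0 h, and any difference among the late times. SEs are Wald errors from the fit. Replicate differences of the 3 late KO groups correlated at 0.563 to 0.636 with each other, where replicate number goes with count table and depth, so the number pairs libraries among the late times; it does not pair them with WT 0 h. The fit was tested on simulated data. DESeq2 1.42.0, RLE scaling, no filter, a replicate block, left-out libraries, fewer libraries in the fit and a minimum effect were alternatives.

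Named genes are Stra8, Kit, Piwil2, Ddx4 and Dazl; the 12 highest and 12 lowest called genes with at least 5 CPM and non-overlapping groups; the 6 largest early changes per direction and class with at least 5 CPM; up to 3 of smallest p per list; and the 4 of smallest p among late times. Others were named from their values. Gene models without a name were only counted. The comparison, the 29 gene lists (653 of 661 genes matched) and the rules were chosen with earlier results of these data known. Intervals and floors of 3 counts cover counting error only. A further result is not reported here.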

Additional observations from a re-analysis of the deposited data

Results flagged for a closer look

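Over the 6 late KO libraries, 54 named genes were checked for a single library far from the others (gap over range above 0.625). Chance marks about 1 in 20 such groups. Stra8 stood apart at 5.17 CPM in KO 96 h replicate 2, a shallow library in which 3 reads are worth 3.29 CPM; the recovered column of that group held 1.85 CPM. In KO 72 h replicate 2, also shallow, 5 genes stood apart: Cldn11 at 56.7 CPM, Amhr2 at 64.8 CPM, Clu at 613 CPM, Jam2 at 23.4 CPM and Ntn4 at 21.6 CPM. The recovered column of KO 72 h held 51.6, 47.8, 512, 16.7 and 10.5 CPM for the same genes. The first 3 are Sertoli cell markers, and the summed level of the 19 markers was highest in that library too, at 1195 CPM.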

How the results depend on the processing

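The 1086 calls in late KO against WT 0 h became 1932 with no filter (803 higher, 1129 lower), 2048 with a replicate block (1066 higher, 982 lower), 173 without the 3 shallow libraries, 1936 with recovered reads (959 higher, 977 lower), 427 with only the 8 libraries in the fit, 15 against a minimum log2 change of 1, and 15 to 1552 with 1 library left out. DESeq2 gave 1348 and RLE scaling 1047. Against KO 0 h, 422 calls became 816 with no filter, 697 with the block, 65 without the shallow libraries, 859 with recovered reads and 8 to 674 with 1 library left out (KO 72 h replicate 2: 232, KO 96 h replicate 1: 674, KO 96 h replicate 2: 204, KO 120 h replicate 2: 190). The 2466 early calls were 453 to 1892 with 1 library left out and 2378 to 2957 otherwise. Early genes within 2-fold of WT 0 h, 1408, were 210 to 1468 with 1 library left out, 1827 with wider limits (-1.5 to 1.5) and 1566 with a 90% interval. The 0 calls among late times were 16 with DESeq2, 108 with no filter, 3 with the block and 2 with recovered reads. The cause of these shifts was not tested, except that fewer libraries leave fewer degrees of freedom.

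The block counts for comparisons with a 0 h group pair libraries that share only a number, since replicate differences of WT 0 h correlated at -0.119 to -0.198 with those of the late KO groups. A block with KO numbers crossed as in the CPM tables, added after the data were seen, gave 1408, 590, 2957, 0 and 1749 for the 5 counts. Of the 80 named genes called, none reversed; 4 stayed called without WT 0 h replicate 1, 43 without WT 0 h replicate 2 and 22 without the shallow libraries.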
